A study of Mus musculus with 2 samples.

Results

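Cd28, Icos and Cd226 encode costimulatory receptors of T cells, and their transcripts were followed across T cell states in 2 droplet single-cell RNA libraries of CD4 T cells taken from the visceral adipose tissue (VAT, the fat depot of the abdomen) of mice. The 3 genes were chosen by name and are 3 of the 32285 genes counted in each library. The CD27_KO library is titled as coming from mice without CD27, a receptor of the TNF receptor superfamily, and the WT library as coming from wild-type mice. The genotype entry of both is C57BL/6 and does not tell them apart, so the groups rest on the titles and on the Cd27 counts given below. Cells bearing TCRb and CD4 had been sorted from the stromal vascular fraction, the non-adipocyte cells of fat, of 10 pooled mice, and it is unclear whether each pool or both together held 10. The age and sex of the mice were not given in the labels. Each group is 1 library, so the spread between mice is unknown and the groups cannot be tested against each other. All intervals are 95% intervals of counting error only, with each UMI (unique molecular identifier, the tag of 1 captured RNA molecule) taken as independent.

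CD28 binds CD80 and CD86 on antigen-presenting cells and gives naive T cells the costimulatory signal that they need beside the T cell receptor. ICOS, its relative, binds ICOS ligand, appears on T cells after activation, and is known on follicular helper T cells and on regulatory T cells (Treg), those of VAT included. CD226, also called DNAM-1, belongs to another receptor family, binds CD155 and CD112, shares these ligands with the inhibitory receptor TIGIT, and is known on natural killer cells and on effector T cells.

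Cd28, Ctla4 and Icos lie next to each other on chromosome 1 (mm10, gene models of GENCODE vM21), all on the plus strand. Cd28 spans chr1:60716800-60773359 and Icos spans chr1:60977927-61000320. Ctla4, the gene of the inhibitory receptor that competes with CD28 for its ligands, lies between them at chr1:60887000-60915832, 114 kb after the end of Cd28 and 62.1 kb before the start of Icos. The cytoplasmic tail of each of the 3 proteins holds a tyrosine, any pair of residues and a methionine, known as a binding motif for phosphoinositide 3-kinase. The 30 coding bases around this motif are shown because they are what the family members share in their signalling part, with the 12 bases of the motif in capitals.
Cd28, chr1:60769684-60769713: caaagtgacTACATGAACATGactccccgg
Ctla4, chr1:60914637-60914666: acaggggtcTATGTGAAAATGcccccaaca
Icos, chr1:60995551-60995580: aatagtgaaTACATGTTCATGgcggcagtc
Of the 12 motif bases of Cd28, Icos shared 10 and Ctla4 shared 9.

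After removal of 40 CD27_KO and 60 WT barcodes, 6789 CD27_KO and 6203 WT T cells were kept, with a median of 2200 and 1931 UMIs per cell. Cd27 itself had 15 UMIs in CD27_KO T cells and 2072 in WT T cells, so its counts do not go against the labels, and 12 barcodes occurred in both libraries. Cd4 was read at 146 CPM (counts per 1000000 summed UMIs of the cells in question) in CD27_KO and 131 CPM in WT, Cd8a at 0.253 and 0.505 CPM. Joint clustering that left out the 3 genes and the other members of their receptor families gave 15 clusters of T cells and 3 of other cells. Of the T cell clusters, 10 held at least 100 cells of each library. The libraries differed in the sizes of the clusters: Treg-like cells, in clusters 3 and 4, made up 7.0% of CD27_KO and 24.2% of WT T cells, and naive-like cells, in cluster 5, made up 4.6% and 21.2%.

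Over all T cells, Cd226 was higher in CD27_KO, Cd28 was higher by less, and Icos stood at the same level in both libraries. Cd226 had 5094 UMIs in CD27_KO, or 257 CPM (250.4 to 265), and 2499 UMIs in WT, or 158 CPM (152 to 164). The ratio was 1.63-fold (1.55 to 1.71), or 0.71 on the log2 scale. Cd28 had 11222 UMIs in CD27_KO, or 567 CPM (557 to 578), and 7079 UMIs in WT, or 447 CPM (437 to 458), a log2 ratio of 0.34 (0.30 to 0.39). Icos had 5202 UMIs in CD27_KO, or 263 CPM (256 to 270.1), and 4192 UMIs in WT, or 265 CPM (257 to 273), a log2 ratio of -0.01 (-0.07 to 0.05). So 1 of the 3 genes, Cd226, was at least 1.5-fold higher in CD27_KO and 0 were 1.5-fold lower, where 7.03% of 9755 genes with at least 100 UMIs were that much higher and 2.86% that much lower.

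The median gene itself had a log2 ratio of 0.17. Ribosomal protein genes took 27.6% of the UMIs of CD27_KO T cells and 32.2% of those of WT T cells. With ribosomal protein and mitochondrial genes left out of the total, the log2 ratios were 0.62 for Cd226, 0.25 for Cd28 and -0.10 for Icos. Relative to that median, Cd226 stood at 0.53, Cd28 at 0.17 and Icos at -0.18, and none of them passed 1.5-fold, against 3.34% of genes higher and 4.28% lower on that scale. The place of each gene among all measured genes does not depend on this scaling. Cd226 had a higher ratio than 95.9% of them, Cd28 than 75.9% and Icos than 23.9%.

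The share of cells in which a gene was seen gave the same order of the differences. With each cell thinned to 1300 UMIs, which left out 54 CD27_KO and 536 WT cells, Cd226 was seen in 27.2% of CD27_KO cells (26.2 to 28.3) and 16.6% of WT cells (15.6 to 17.6). Cd28 was seen in 48.4% of CD27_KO cells (47.2 to 49.6) and 40.0% of WT cells (38.8 to 41.3), and Icos in 24.1% (23.1 to 25.1) and 23.6% (22.5 to 24.7). Without thinning these shares were 43.3% and 27.1% for Cd226, 68.2% and 55.3% for Cd28, and 38.0% and 35.4% for Icos. The background, from free RNA or from cells of another type, can be read in the 11 CD27_KO and 29 WT cells of a stromal-like cluster, with a median of 2406 and 2039 UMIs per cell. Cd28 had 1 UMI there in CD27_KO and 2 in WT, Icos 1 and 0, and Cd226 2 and 0, and after thinning Cd28 was seen in 1 of 21 WT cells while no other cell showed any of the 3 genes. These cells are few: 0 of 10 CD27_KO cells allows a share of up to 30.8%, and 0 of 21 WT cells up to 16.1%. B cell-like and plasmacytoid dendritic-like cells carried T cell transcripts, with 302 and 333 CPM of Cd28 in WT, and were not used as background.

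**Figure D1:**
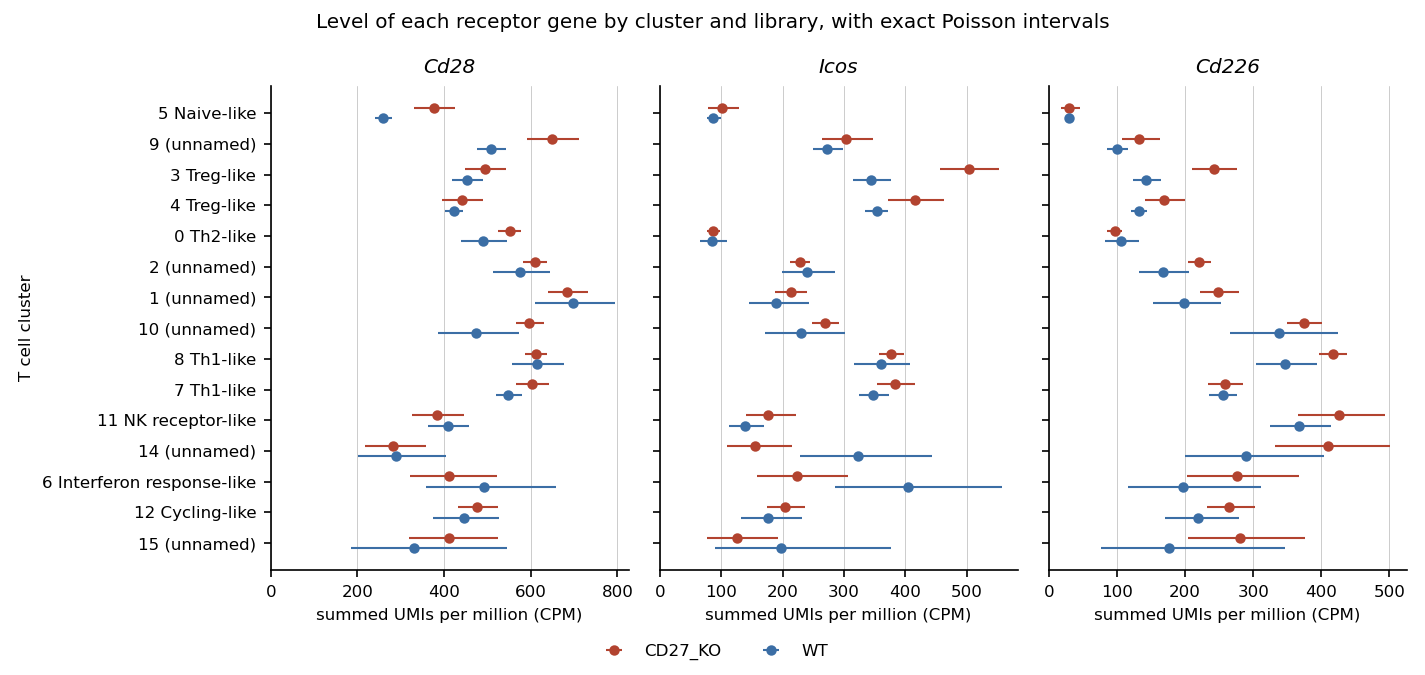
Level of Cd28, Icos and Cd226 (CPM, x axis) in each of the 15 T cell clusters (y axis), CD27_KO in red above WT in blue, with exact Poisson intervals. Naive-like cells were low for all 3 genes in both libraries, and among the 10 clusters of at least 100 cells in each library Icos was highest in Treg-like and Th1-like cells and Cd226 in NK receptor-like cells and clusters 8 and 10.

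Cd28 was the most evenly spread of the 3 genes over the T cell states. Over the 10 clusters with at least 100 cells in each library it spanned 376 to 684 CPM in CD27_KO and 260.0 to 698 CPM in WT, a 1.82-fold and a 2.68-fold range. It was highest in cluster 1, unnamed and led by Socs2, Sytl3 and Bhlhe40, with 684 CPM in CD27_KO and 698 CPM in WT. Naive-like cells, led by Dapl1, Ccr7 and Igfbp4, had the lowest level of these clusters in both libraries, 376 CPM in CD27_KO (331 to 425) and 260.0 CPM in WT (241 to 280.1). In between, the 2 Treg-like clusters stood at 495 and 441 CPM in CD27_KO and at 453 and 422 CPM in WT, below Th1-like cluster 7 at 603 CPM in CD27_KO and 548 CPM in WT. Cluster 7 took its Th1-like name from 4 enriched markers of 9. It was led by Tmem176a, Ly6c2 and Tmem176b, and Tmem176a and Tmem176b are on the Th17 marker list, so it may not be purely Th1. In neither library did most neighbours in the order differ beyond their intervals: of 9 neighbouring pairs, 0 were apart in CD27_KO and 1 in WT, the naive-like cells below the NK receptor-like cells.

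Over the same 10 clusters, Icos spanned 87.3 to 503 CPM in CD27_KO and 85.2 to 360.3 CPM in WT. The top 4 places belonged in both libraries to the 2 Treg-like and the 2 Th1-like clusters. In CD27_KO these were Treg-like cluster 3 at 503 CPM (457 to 552), Treg-like cluster 4 at 416 CPM, Th1-like cluster 7 at 383 CPM and Th1-like cluster 8 at 377 CPM. In WT all 4 lay within 344 and 360.3 CPM, with overlapping intervals. At the bottom stood the Th2-like cells of cluster 0, led by Calca, Csf2, Tnfsf11 and Il4, with 87.3 CPM in CD27_KO (77.2 to 98.3) and 85.2 CPM in WT (64.7 to 110.2). Their level was no higher than that of naive-like cells, at 102 CPM in CD27_KO and 87.3 CPM in WT. The stromal-like WT cells, with 0 Icos UMIs, were under 27.8 CPM, the level that 3 counts would give, so the WT levels were above it. In CD27_KO, 1 UMI in 11 stromal-like cells gave 30.7 CPM with an interval up to 171 CPM. The Th2-like and naive-like CD27_KO levels cannot be told from that. The B cell-like and plasmacytoid dendritic-like WT cells, which carried T cell transcripts, had 187 and 164 CPM of Icos, above the WT Th2-like and naive-like levels.

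Cd226 spanned 29.9 to 426 CPM in CD27_KO and 30.1 to 367 CPM in WT over these clusters. The NK receptor-like cells of cluster 11, led by Klra1, Xcl1 and Fcer1g, had 426 CPM in CD27_KO (366 to 493) and 367 CPM in WT (324 to 415). Th1-like cluster 8, led by Itga1 and Ifngas1, followed with 417 CPM in CD27_KO and 347 CPM in WT, and cluster 10, unnamed and led by P2rx7 and Trerf1, with 375 and 338 CPM. These 3 clusters overlapped within each library. Treg-like cells were lower, at 242 and 169 CPM in clusters 3 and 4 of CD27_KO and at 143 and 132 CPM in those of WT. Th2-like cells had 96.6 CPM in CD27_KO and 106 CPM in WT. Naive-like cells had 29.9 CPM in CD27_KO (18.3 to 46.2) and 30.1 CPM in WT (23.9 to 37.5), which is within the interval of the stromal-like cells of each library and so cannot be told from background. In WT that interval ended at 34.2 CPM, below every cluster but the naive-like one. The B cell-like and plasmacytoid dendritic-like WT cells, which carried T cell transcripts, had 131 CPM (91.0 to 182) and 97.1 CPM (67.6 to 135). The intervals of WT Th2-like cells, cluster 9 and both Treg-like clusters overlapped with these. In CD27_KO the stromal-like interval rested on only 2 UMIs and ran from 7.44 to 222 CPM. Th2-like cells, cluster 9 (133 CPM) and Treg-like cluster 4 of CD27_KO cannot be told from that wide interval. Their own intervals, 86.0 to 108, 108 to 163 and 141 to 199.8 CPM, lay above that of the CD27_KO naive-like cells.

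The order of the 10 clusters was much the same in both libraries. Across the 10 clusters, the levels in CD27_KO and WT had a Pearson correlation of 0.98 for Cd226, 0.99 for Icos and 0.86 for Cd28, a description only, since the libraries were clustered together and clusters are not replicates.

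**Figure D2:**
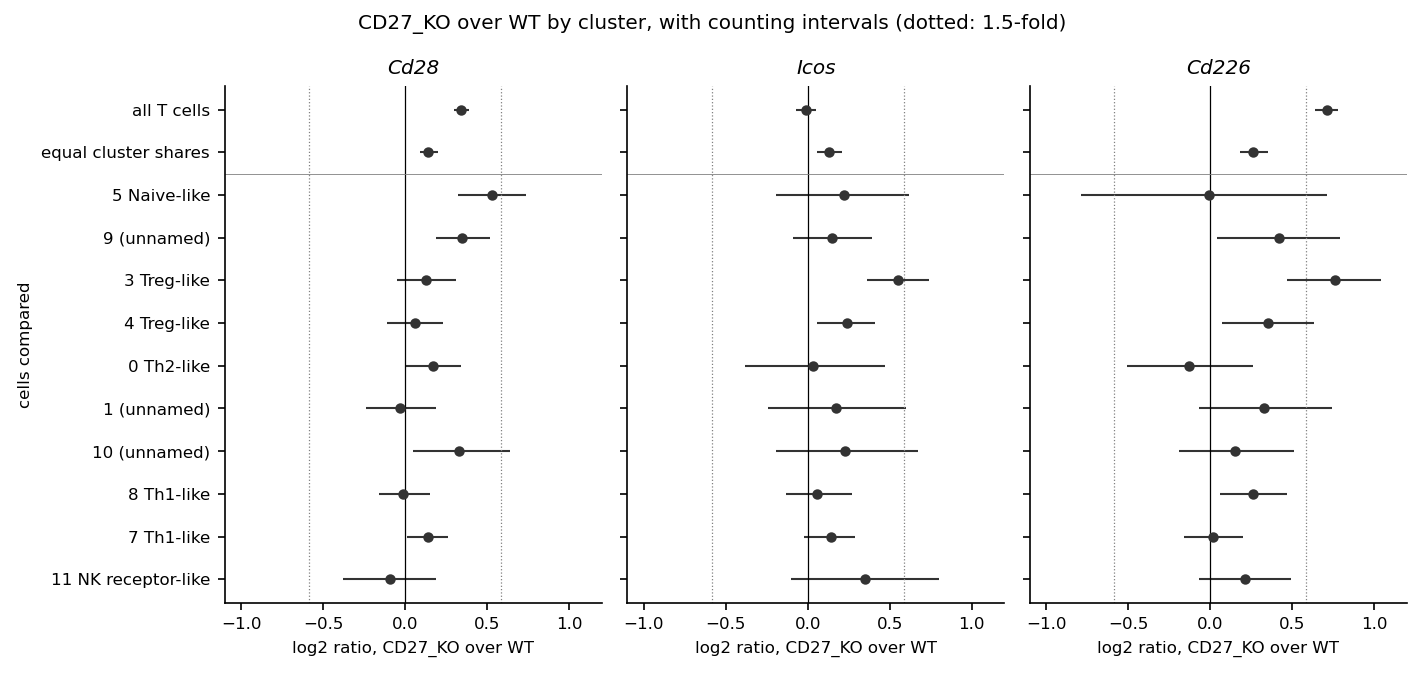
Log2 ratio of CD27_KO over WT (x axis) for Cd28, Icos and Cd226 over all T cells, with each cluster given equal weight in both libraries, and within each of the 10 larger clusters (y axis), with 95% counting intervals; dotted lines mark 1.5-fold. No interval within a cluster lay wholly below 0, and only Cd226 in Treg-like cluster 3 passed 1.5-fold. The median gene of each cluster had a log2 ratio from 0.02 to 0.12.

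Within clusters, most ratios could not be told from 0 by counting error. Of the 30 ratios of 3 genes in 10 clusters, 10 had intervals above 0, 0 below and 20 spanned 0. The share of all genes with such intervals was not counted. The median gene was itself above 0 in each of the 10 clusters, with log2 ratios from 0.02 to 0.12, so the side is not particular to these genes. At least 1.5-fold apart was 1 of the 30, Cd226 in Treg-like cluster 3, where 7.09% of all pairs of gene and cluster were 1.5-fold higher in CD27_KO and 2.72% lower. When every cluster was given the same share of cells in both libraries, the mean of its shares, Cd226 stood at 227 CPM in CD27_KO and 189 CPM in WT, a log2 ratio of 0.26 (0.18 to 0.35). That is closer to 0 than the 0.71 over all T cells. Cd28 likewise stood at 536 CPM in CD27_KO and 486 CPM in WT, a log2 ratio of 0.14 (0.09 to 0.20). Icos moved the other way, to 281 CPM in CD27_KO and 256 CPM in WT, a log2 ratio of 0.13 (0.06 to 0.21). The median gene had a log2 ratio of 0.10 on this scale.

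Among the 10 clusters, the ratios of Icos and of Cd226 were furthest from 0 in Treg-like cluster 3. In this cluster, led by Foxp3, Izumo1r and Ikzf2, Icos had 503 CPM in CD27_KO and 344 CPM in WT (441 and 481 UMIs), a log2 ratio of 0.55 (0.36 to 0.74). Cd226 had 242 CPM in CD27_KO and 143 CPM in WT (212 and 200 UMIs), a log2 ratio of 0.76 (0.47 to 1.04). Both intervals lie above 0, while that of Cd28 spanned it, at 495 CPM in CD27_KO and 453 CPM in WT. The marker genes of the cluster differed between the libraries too: Foxp3 had 229 CPM in CD27_KO and 102 CPM in WT, Ccr7 33.0 and 88.0 CPM, Lef1 139 and 211 CPM, Ly6c2 74.1 and 167 CPM and Nkg7 228 and 341 CPM. Their part in the ratios of Icos and Cd226 was not tested. In cluster 4, led by Cxcl2, Areg and Il10, the differences were smaller: Icos had 416 CPM in CD27_KO and 353 CPM in WT, a log2 ratio of 0.24 (0.06 to 0.41), and Cd226 had 169 and 132 CPM, a log2 ratio of 0.35 (0.07 to 0.63).

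The clusters contributed unequally to the Treg-like cells: cluster 3 held 260 of the 475 CD27_KO cells, and cluster 4 held 1119 of the 1503 WT cells. Over both clusters Icos had 461 CPM in CD27_KO and 350.5 CPM in WT, a log2 ratio of 0.40 (0.27 to 0.52). Cd226 had 207 CPM in CD27_KO and 135 CPM in WT, a log2 ratio of 0.62 (0.43 to 0.80). How large these differences were depended on how the cells were chosen. With each library clustered alone the Treg-like log2 ratio was 0.06 for Icos and 1.49 for Cd226. With the family genes allowed among the clustering genes it was 0.25 and 0.36, so that Cd226 no longer passed 1.5-fold. Nor did Cd226 pass with another clustering seed (0.58), with stricter filters (0.51) or relative to the median gene (0.52). The ratio of Icos was 0.18 with no filter on cells. In all cells with a Foxp3 UMI it was 0.14 for Icos and 0.70 for Cd226.

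Among the other clusters, Cd28 in naive-like cells was furthest apart, at 376 CPM in CD27_KO and 260.0 CPM in WT, a log2 ratio of 0.53 (0.32 to 0.74). Cluster 9, unnamed and carrying follicular helper and naive markers (Slamf6 and Cd200 among its leading genes), had 649 CPM of Cd28 in CD27_KO and 508 CPM in WT, a log2 ratio of 0.35 (0.19 to 0.52). Cluster 10 had 597 CPM in CD27_KO and 474 CPM in WT, a log2 ratio of 0.33 (0.05 to 0.64). In Th1-like cluster 8, in contrast, Cd28 stood at 612 CPM in CD27_KO and 614 CPM in WT. Th2-like cells had 551 CPM in CD27_KO and 489 CPM in WT, an interval that just spanned 0 (log2 ratio 0.17). For Cd226 the ratios of naive-like and Th2-like cells, -0.01 and -0.13, depended on the choice of cells. The naive-like one was 0.81 with no filter on cells, 0.80 without the top 5% of cells by UMIs and 1.07 with each library clustered alone, and the Th2-like one was 0.84 with each library clustered alone and 0.56 with stricter filters on genes and mitochondrial UMIs.

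Of the smaller clusters, some rested on few UMIs. Cluster 14, led by Gzma and Cx3cr1, was unnamed because it carried both Th1 and cytotoxic markers. It had 155 CPM of Icos in CD27_KO (36 UMIs) and 323 CPM in WT (38 UMIs), a log2 ratio of -1.06 (-1.75 to -0.36). Interferon response-like cells, cluster 6, had 224 CPM in CD27_KO (38 UMIs) and 405 CPM in WT (37 UMIs), a log2 ratio of -0.86 (-1.55 to -0.16). These 2 clusters were the only ones of the 15 whose Icos interval lay below 0, and each had under 100 Icos UMIs. Cluster 2, unnamed, led by Ccl1, Hdc and Rnf128, with Il5 and Il1rl1 among its 10 leading genes and with the deepest cells (median 5901 UMIs), had 80 WT cells but more UMIs. Its Cd226 stood at 221 CPM in CD27_KO (704 UMIs) and 167 CPM in WT (86 UMIs), a log2 ratio of 0.41 (0.09 to 0.75), and its Icos at 228 and 240.1 CPM.

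**Figure D3:**
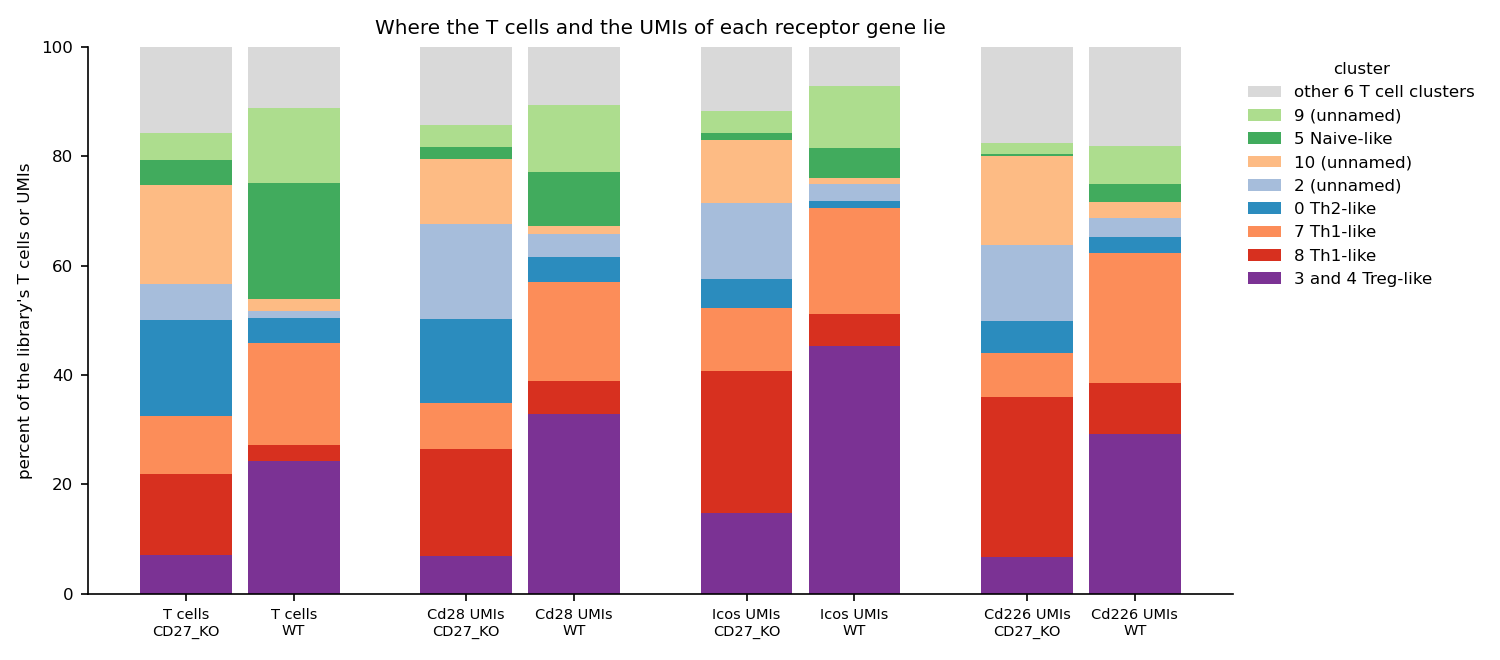
Percent of each library's T cells, and of its Cd28, Icos and Cd226 UMIs (y axis), that lie in each cluster, with CD27_KO left of WT in each pair of bars. Treg-like clusters, at the foot of each bar, held 14.8% of Icos UMIs in CD27_KO and 45.3% in WT.

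Because cluster sizes differed, the same transcripts lay in different cells. Treg-like cells held 14.8% of the Icos UMIs of CD27_KO T cells and 45.3% of those of WT T cells. Th1-like cluster 8 held 25.9% of them in CD27_KO and 5.82% in WT, and cluster 2 held 13.9% and 2.96%. So the equal level of Icos over all T cells came from different states: most WT Icos transcripts were in Treg-like cells and Th1-like cluster 7 (19.4%), and most CD27_KO ones were outside them. For Cd226, Treg-like cells held 6.77% of CD27_KO and 29.3% of WT UMIs, Th1-like cluster 7 held 8.01% and 23.8%, Th1-like cluster 8 held 29.2% and 9.40%, and cluster 10 held 16.4% and 3.00%. Cd28 UMIs followed the same shift of cells: Treg-like cells held 6.97% of them in CD27_KO and 32.9% in WT, cluster 2 held 17.3% and 4.2%, and Th2-like cells held 15.3% and 4.70%. With 1 library a group, cluster sizes set by the genotype and by the sort or the pool cannot be told apart.

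**Figure D4:**
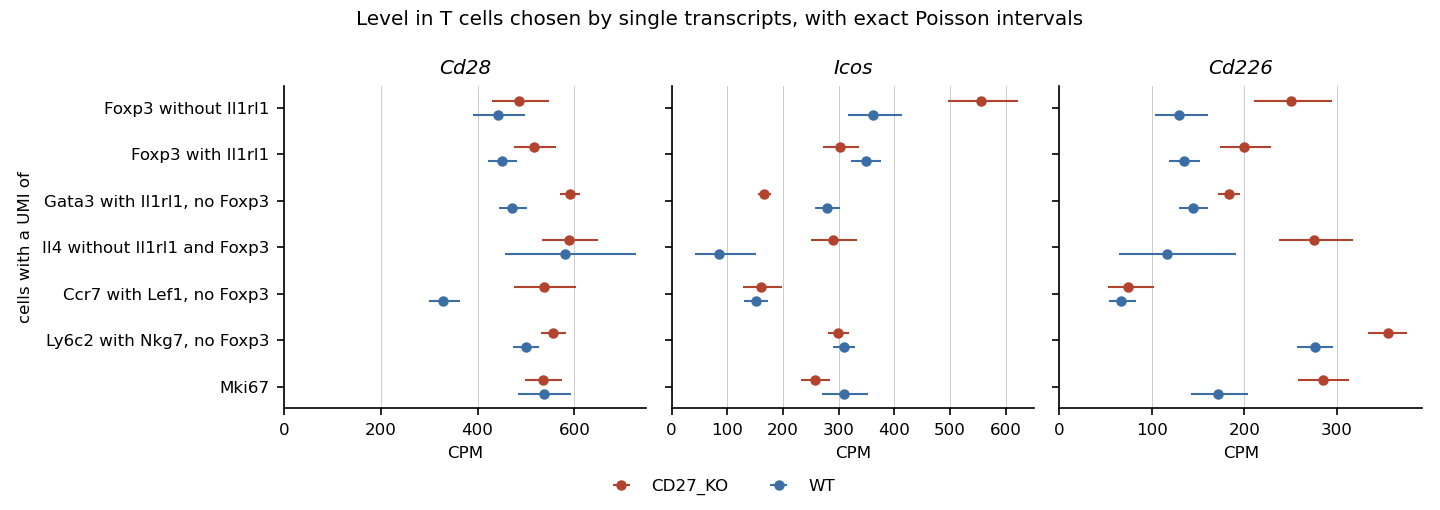
Level of Cd28, Icos and Cd226 (CPM, x axis) in T cells chosen by the UMIs of a few marker genes (y axis), CD27_KO in red above WT in blue, with exact Poisson intervals. Icos was higher in CD27_KO in Foxp3 cells without Il1rl1 and lower in Gata3 cells with Il1rl1.

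T cells chosen by single transcripts, whatever their T cell cluster, split the Treg difference by Il1rl1, the gene of the IL-33 receptor ST2 that marks VAT Treg. A cell without an Il1rl1 UMI may still express the gene. Foxp3 cells without Il1rl1 were shallower, with a median of 2872 UMIs in CD27_KO and 2423 in WT, against 5528 and 3890 in those with it. Foxp3 cells without Il1rl1 (158 in CD27_KO, 216 in WT) had 556 CPM of Icos in CD27_KO and 362 CPM in WT, a log2 ratio of 0.62 (0.37 to 0.87). The same cells had 250.1 CPM of Cd226 in CD27_KO and 129 CPM in WT, a log2 ratio of 0.95 (0.55 to 1.37). Foxp3 cells with Il1rl1 (159 in CD27_KO, 392 in WT) stood the other way for Icos, at 303 CPM in CD27_KO and 349 CPM in WT, a log2 ratio of -0.21 (-0.40 to -0.01). Their Cd226 was again higher in CD27_KO, at 200.1 CPM against 135 CPM in WT. These Foxp3 cells with Il1rl1 did not lie in the same clusters: 59.7% of the CD27_KO ones and 94.1% of the WT ones were Treg-like, and 34.6% and 3.32% were in cluster 2. Outside the Treg-like clusters (64 CD27_KO and 23 WT cells) their Icos stood at 276 CPM in CD27_KO and 286 CPM in WT. That is a log2 ratio of -0.05 (-0.51 to 0.42), so the lower Icos cannot be told from the difference in clusters.

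In cells with Gata3 and Il1rl1 but no Foxp3 UMI, Icos was lower in CD27_KO, at 166 CPM in CD27_KO and 279 CPM in WT, a log2 ratio of -0.74 (-0.89 to -0.59). Here too the cells differed: 2.65% of the 1319 CD27_KO cells and 57.7% of the 582 WT cells lay in the Treg-like clusters. Outside the Treg-like clusters the same choice gave 161 CPM of Icos in CD27_KO and 173 CPM in WT, a log2 ratio of -0.11 (-0.36 to 0.16). Cells with Ccr7 and Lef1 and no Foxp3 had 537 CPM of Cd28 in CD27_KO and 329 CPM in WT, a log2 ratio of 0.71 (0.48 to 0.93). Most of them, 71.0% in CD27_KO and 76.0% in WT, were the naive-like cells of cluster 5, so this is no separate observation. The rest differed: 12.6% and 7.49% lay in cluster 9, 3.28% and 0.220% in cluster 2, and 5.46% and 11.2% in the Treg-like clusters. Cells with Mki67, a marker of dividing cells, had 285 CPM of Cd226 in CD27_KO and 171 CPM in WT, a log2 ratio of 0.73 (0.44 to 1.04). Of these dividing cells 7.12% in CD27_KO and 43.4% in WT were Treg-like, and outside the Treg-like clusters the log2 ratio was 0.38 (0.02 to 0.75).

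Cells with Il4 but neither Il1rl1 nor Foxp3 had 290.0 CPM of Icos in CD27_KO and 85.0 CPM in WT, a log2 ratio of 1.77 (0.90 to 2.80), which in WT rested on 11 UMIs of 46 cells. Their Cd226 stood at 275 CPM in CD27_KO and 116 CPM in WT (15 UMIs), a log2 ratio of 1.25 (0.49 to 2.11). These cells lay in different clusters: 21.6% of the CD27_KO and 6.52% of the WT cells in cluster 10, 18.8% and 8.70% in Th1-like cluster 8, and 5.31% and 13.0% in Th1-like cluster 7. Cells with Ly6c2 and Nkg7, genes of Th1 and cytotoxic cells, had 355 CPM of Cd226 in CD27_KO and 276 CPM in WT, a log2 ratio of 0.36 (0.23 to 0.50), and 299 and 309 CPM of Icos. Of them, 35.8% in CD27_KO and 9.98% in WT were in cluster 8, 16.2% and 38.6% in cluster 7, and 2.33% and 13.3% in the Treg-like clusters, outside which the log2 ratio of Cd226 was 0.24 (0.10 to 0.38).

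Few cells showed all 3 receptor genes at the thinned depth, 3.50% in CD27_KO and 2.19% in WT, while 29% and 39.8% showed none. In both libraries Cd226 was seen in a larger share of cells with an Icos UMI than of cells without. Its intervals overlapped slightly in CD27_KO and did not overlap in WT. In CD27_KO it was seen in 29.4% of cells with Icos (27.2 to 31.7) and 26.5% of cells without (25.3 to 27.8), and in WT in 20% (17.9 to 22.3) and 15.5% (14.5 to 16.6). Within Treg-like cells the intervals overlapped in both libraries, at 27.4% (21.2 to 34.3) and 20.1% (15.6 to 25.4) in CD27_KO and 15.6% (12.4 to 19.3) and 14.4% (12.2 to 16.8) in WT. Icos was seen in 24.5% of CD27_KO cells with Cd28 and 23.7% of those without, and in 25.0% and 22.7% of WT cells, with overlapping intervals in each library. Most cells held few molecules: 1870 CD27_KO and 1737 WT cells had exactly 1 Cd28 UMI, and the highest count in a cell was 18 in CD27_KO and 20 in WT.

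The families of these receptors were read as a whole from gene lists, with the 3 genes themselves set aside. Of 44 other listed genes, 42 had at least 100 UMIs over both libraries, and of these 4 were at least 1.5-fold higher in CD27_KO, 5 lower and 33 neither. Relative to the median gene, 1 was higher and 6 were lower. Over all genes these shares were 7.03% higher and 2.86% lower, and 3.34% and 4.28% relative to the median gene. Of the 3 inhibitory receptors of the CD28 family, Ctla4 and Pdcd1 were at least 1.5-fold lower in CD27_KO over all T cells and Btla was not. Ctla4 had 222 CPM in CD27_KO and 400.3 CPM in WT, a log2 ratio of -0.85 (-0.91 to -0.80). Pdcd1, the gene of PD-1, had 13.5 CPM in CD27_KO and 27.3 CPM in WT, a log2 ratio of -1.02 (-1.24 to -0.80). Btla had 25.6 CPM in CD27_KO and 28.7 CPM in WT, an interval that spanned 0.

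Within Treg-like cells Ctla4 stood the other way. Its log2 ratio was 0.21 at equal cluster shares, and within Treg-like cluster 3 it stood at 1129 CPM in CD27_KO and 577 CPM in WT, a log2 ratio of 0.97 (0.83 to 1.11). In Treg-like cluster 4 it stood at 1308 CPM in CD27_KO and 946 CPM in WT. In every other cluster of the 10, Ctla4 was lower in CD27_KO, with log2 ratios from -0.96 in cluster 10 to -0.04 in cluster 7. The whole interval lay on that side in clusters 0, 1, 8 and 10. In Th1-like cluster 8, for example, it stood at 133 CPM in CD27_KO and 199 CPM in WT. Pdcd1 kept a log2 ratio of -0.42 at equal shares.

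Of the ligand genes, Icosl, which encodes the ligand of ICOS, had 15.9 CPM in CD27_KO (314 UMIs) and 5.05 CPM in WT (80 UMIs), a log2 ratio of 1.65 (1.29 to 2.02). The stromal-like cells had 30.7 CPM in CD27_KO and 9.27 CPM in WT, from 1 UMI each, too few to tell the level over all T cells from background. Among the 10 clusters Icosl was highest in Th2-like cells, with 36.1 CPM in CD27_KO (113 UMIs) and 29.4 CPM in WT (20 UMIs). Cluster 9 had 1.42 CPM in CD27_KO and 1.15 CPM in WT, and naive-like cells had 2.99 CPM (2 UMIs) and 0.376 CPM (1 UMI). So the Th2-like level stood well above that of these other T cells of the same library. At equal cluster shares the log2 ratio of Icosl was 0.73. Cd80, a CD28 ligand, had 1.62 CPM in CD27_KO (32 UMIs) and 6.06 CPM in WT (96 UMIs), a log2 ratio of -1.91, and Pdcd1lg2, a ligand of PD-1, had 11.6 and 25.6 CPM, a log2 ratio of -1.14 that was -1.03 at equal shares. Cd86 and Cd274 were less than 1.5-fold apart.

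**Figure D5:**
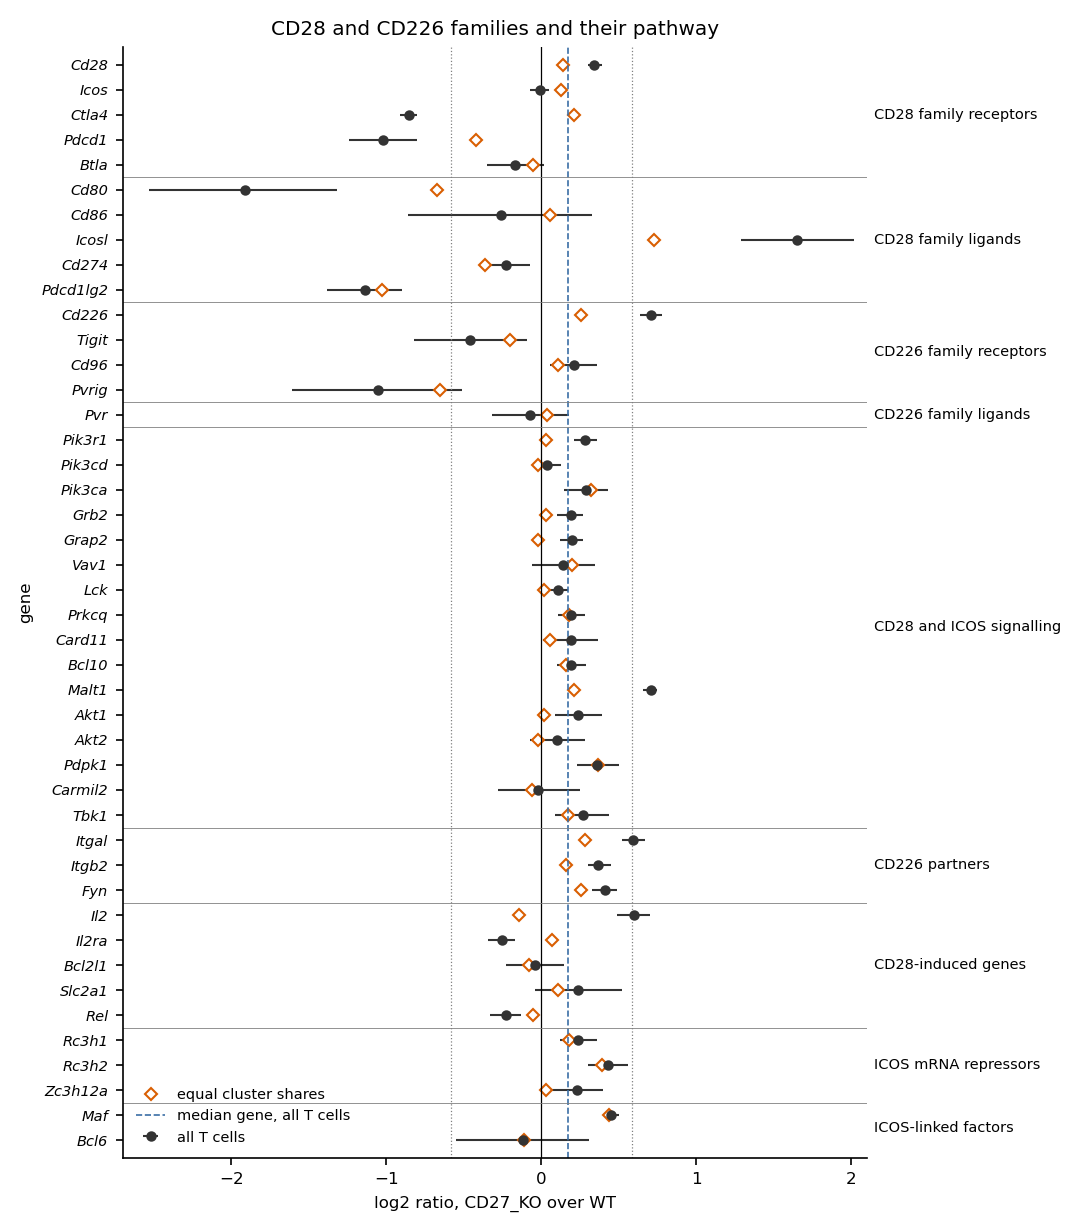
Log2 ratio of CD27_KO over WT (x axis) for measured genes of the CD28 and CD226 families and their pathway (y axis, grouped by list), over all T cells with 95% counting intervals (filled) and at equal cluster shares (open). Most signalling genes lay near the median gene, drawn as a dashed line at 0.17, and the inhibitory receptors Ctla4, Pdcd1 and Pvrig lay to the left over all T cells.

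Of the 4 measured receptor genes of its family, Cd226 was at least 1.5-fold higher in CD27_KO and Pvrig at least 1.5-fold lower. Beside these, 7.03% of all measured genes were that much higher and 2.86% that much lower. Relative to the median gene Cd226 did not pass 1.5-fold, and its log2 ratio was 0.26 at equal cluster shares. Tigit, the inhibitory receptor for the same ligands, had 6.22 CPM in CD27_KO and 8.53 CPM in WT, a log2 ratio of -0.46 (-0.82 to -0.09). Cd96, another receptor of CD155, had 44.6 CPM in CD27_KO and 38.7 CPM in WT, a log2 ratio of 0.21 (0.06 to 0.36). Pvrig, an inhibitory receptor of CD112, had 2.38 CPM in CD27_KO (47 UMIs) and 4.93 CPM in WT (78 UMIs), a log2 ratio of -1.05 (-1.61 to -0.51). Pvr, the gene of CD155, had 14.8 CPM in CD27_KO and 15.5 CPM in WT, and Nectin2, the gene of CD112, had 3 and 1 UMIs and was not measured. The integrin chain genes Itgal and Itgb2, which form LFA-1, a partner of CD226, had log2 ratios of 0.59 and 0.37, and Fyn, a kinase of the same complex, 0.41.

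The signalling genes downstream of CD28 and ICOS lay close to the median gene. Of 17 genes, 16 had a ratio above 0, beside 75.0% of all genes, and 1 was 1.5-fold higher, beside 7.03% of all genes. Their median log2 ratio was 0.19, beside 0.17 for all genes. The gene past 1.5-fold was Malt1, a protease of the NF-kB pathway, at 518 CPM in CD27_KO and 318 CPM in WT, a log2 ratio of 0.71 that was 0.21 at equal cluster shares. The kinase genes Pdpk1 and Pik3ca had log2 ratios of 0.36 and 0.29, and 0.37 and 0.32 at equal shares. Among 5 genes known to follow CD28 signals, Il2 was 1.5-fold higher, at 107 CPM in CD27_KO and 70.7 CPM in WT, and stood at -0.14 at equal shares, while Il2ra had 121 and 144 CPM. The 3 genes that restrain Icos messenger RNA, Rc3h1, Rc3h2 and Zc3h12a, had log2 ratios of 0.24, 0.43 and 0.23, with a list median of 0.24. Maf, a transcription factor linked to ICOS, had 454 CPM in CD27_KO and 331 CPM in WT, a log2 ratio of 0.45 that was 0.44 at equal shares, and its highest cluster in CD27_KO was Treg-like cluster 3, at 1243 CPM. Il21, a cytokine gene of follicular helper cells, had 8 UMIs in CD27_KO and 48 in WT, too few to be counted.

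Genes whose pattern over the states was most like that of each receptor gene were ranked by the Pearson correlation of log2(CPM + 10) over 16 profiles of class and library, among 6057 genes with at least 500 UMIs. The profiles share 2 libraries and differ in depth, so these are descriptions. Most like Cd226 were Crot (0.98), Zyx, St8sia4, Hsp90b1 and Lcp1 (0.97 each). Most like Icos were Gbp6 (0.93), Flna (0.90), Rfk and Dock2 (0.89 each) and Ptpn4 (0.88). Among the 5 most like Cd28 were Hivep2 and Copb1 (0.90 each), Chmp1b (0.88) and Mink1 (0.86). The 3 receptor genes were less like each other, with 0.45 for Cd28 and Icos, 0.47 for Cd28 and Cd226 and 0.55 for Icos and Cd226. Ctla4, between Cd28 and Icos on the chromosome, had a correlation of 0.69 with Icos and -0.04 with Cd28.

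Cd226 lies apart from the other receptor genes, on chromosome 18 at 89176967 to 89272229 on the plus strand (mm10, GENCODE vM21), with no overlapping gene model. The model of Icos overlaps Gm37039 on the same strand, which has no count of its own here, so its reads cannot be told from those of Icos.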

How the data were processed

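The authors deposited UMI counts per gene and cell, 1 matrix a library, made with Cell Ranger 6.1.1 per the file headers, on mm10 per the submitters' processing notes. The labels name kit v3.1 in the design and v2 in the sample protocol. Their crosses with a CD70 transgene were not analysed here. Groups rest on the sample titles. The antibody feature of each matrix had 0 UMIs.

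Barcodes needed at least 500 genes and no more than 10% of UMIs from mitochondrial genes. The libraries were clustered together, with no batch correction, in Python 3.11.15 with scanpy 1.11.5, igraph 0.11.9, scikit-learn 1.9.0 and scipy 1.17.1 (2000 variable genes, 30 principal components, 20 neighbours, Leiden resolution 1, seed 0). The variable genes left out Cd28, Icos, Cd226 and the listed receptors and ligands of their families, besides Cd27, antigen receptor segments and ribosomal, mitochondrial, haemoglobin and sex-linked genes. Clusters were named by the marker list with the highest median log2 enrichment (pseudocount 10 CPM), given 3 markers or more that were 1.5-fold enriched and detected in 5% of the cluster, and were left unnamed where another lymphocyte list reached 0.5 of that median. This rule, the 3 genes and all lists were chosen with earlier results of these data known. No doublet caller was run. B cell-like and plasmacytoid dendritic-like clusters carried T cell transcripts, so the stromal-like cluster served as background.

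Counts were summed over cells and given as CPM with exact Poisson intervals. Ratios have exact conditional binomial intervals, and shares Clopper-Pearson intervals after thinning each cell to 1300 UMIs. Genes were called apart past 1.5-fold where both libraries together held 100 UMIs or more. This rule was tried on simulated counts with counting error only, which cannot show how it holds against differences between mice, pools or libraries. Equal cluster shares weight each cluster by the mean of its shares in the libraries, with an approximate (delta-method) interval. Depth was 20191704 UMIs in CD27_KO and 16628623 in WT. Named genes are the 3 receptors, up to 4 genes furthest from 0 in each pathway list, the 5 most alike genes, the transcripts used to choose cells, and Cd27. Alternatives changed the cell filter, scaling, weight of cells, clustering, thinning depth and UMI minimum. Values of 2 genes that this rule would name are not reported here.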

Additional observations from a re-analysis of the deposited data

How the results depend on the processing

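No paired analysis was possible because each group is 1 library with no replicate number, and no replicate could be left out. The log2 ratios over all T cells ranged from 0.53 to 0.71 for Cd226, 0.17 to 0.39 for Cd28 and -0.18 to 0.03 for Icos over 12 settings. Relative to the median gene, Cd226, Cd28 and Icos had 0.53, 0.17 and -0.18 over all T cells and 0.16, 0.04 and 0.03 at equal cluster shares. A stricter filter, 1000 genes and 5% mitochondrial UMIs, gave 0.62, 0.25 and -0.13, and 0.01 for Icos at equal shares. Without ribosomal and mitochondrial UMIs in the total the values were 0.62, 0.25 and -0.10. Without the top 5% of cells by UMIs, and with each cell weighted equally, Cd28 had 0.39. With each library clustered alone the equal-share values were 0.85 for Cd226, 0.28 for Cd28 and -0.02 for Icos, and at Leiden resolution 0.5 that of Cd226 was 0.42. A minimum of 20 UMIs put 1292 genes at least 1.5-fold higher and 713 lower in CD27_KO, against 686 and 279 at a minimum of 100, and relative to the median gene 326 were higher. Cd226 stayed above 1.5-fold over all T cells except relative to the median gene. Of 135 ratios within classes, 20 moved past the counting interval of the main value and 109 kept its sign. Of the 5 genes most like each receptor gene, 3 were shared for Cd28, 4 for Icos and 3 for Cd226 when clusters replaced classes. Depth limited the clusters under 100 cells and cells with few UMIs, and the cause of these moves was not tested.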
